A study of Mus musculus with 11 samples.

Results

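The genes described here are 10 markers of glia and radial glia, taken as a fixed list from the 22619 genes of a raw count table. They are Gfap, Vim, Nes, Prom1, Slc1a3, Slc1a2, Glul, S100b, Fabp7 and Aqp4, and all 10 were in the table. RNA was sequenced from 11 libraries of SMB21, a mouse medulloblastoma line kept as neurospheres. Every library, controls included, carried the Ptch mutant background of strain Ptch1tm1Mps/J, of adult animals per the labels. The groups were parental cells given sonidegib for 24 hours (n = 2), Ofd1 mutant cells (n = 4), Sufu mutant cells (n = 2) and untreated parental cells (n = 3). Sonidegib inhibits Smoothened, the membrane protein that passes the Hedgehog signal on. The mutants were drug-resistant clones found in a transposon screen. Whether they were still grown in drug is not stated in the labels. Ofd1 libraries 1 and 2 came from clone R14, library 3 from R16 and library 4 from R25, and Sufu libraries 1 and 2 came from clones R13 and R1. Each clone therefore stands for 1 selected lineage, and p-values measure only the spread between these libraries.

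Radial glia are the stem cells of the developing nervous system, and they give rise to neurons first and to astrocytes and other glia later. In the cerebellum, Bergmann glia keep radial fibres into adulthood, while the granule cell progenitors from which Hedgehog-driven medulloblastoma arises form a separate lineage. Radial glia and astrocytes share intermediate filaments, glutamate uptake and glutamine synthesis, so the listed genes mark a state rather than a single cell type.

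Levels are CPM, the read count of a gene scaled to the TMM-adjusted total of its library. Set per kilobase of merged exons, the mean level over the 11 libraries was highest for Glul, at 186 CPM per kb. It was 81.2 for Vim, 42.6 for Nes, 34.3 for Slc1a3, 20.6 for Prom1 and 20.4 for Slc1a2, all in CPM per kb. Gfap, the classical astrocyte marker, had 7.49 CPM per kb and S100b had 6.42. Fabp7, at 0.587 CPM per kb, and Aqp4, at 0.00128, were close to absent. The libraries thus held RNA of most of the listed genes, with the water channel of mature astrocytes missing.

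Totals ran from 24308451 to 38241595 counts per library, and reads without molecular identifiers make limits drawn from them cover counting error only. Parental libraries 1 and 2 and sonidegib library 1 stood apart from the other 8 on the second principal component of all genes, at 26.8 to 35.88 against -24.9 to -3.983. In sonidegib library 2, the deviation of a gene from its mean ran with its exon length at a correlation of -0.538, against 0.00342 to 0.238 in the other 10 libraries. As a check of the labels, Ofd1 averaged 15 ± 5.99 CPM in Ofd1 mutants (SD, n = 4) and 38.5 ± 3.95 CPM in parental cells (SD, n = 3). Sufu was at 2.76 and 17.7 CPM in the Sufu mutant libraries, against 27.7 to 29.6 CPM in parental cells. Neither difference passed the edgeR quasi-likelihood test over all genes (adjusted p = 0.0853 and 0.563). Sufu was also at 24.8 and 5.6 CPM with sonidegib and at 12 to 19.2 CPM in Ofd1 mutants (log2 fold changes against parental cells -0.91 and -0.94, adjusted p = 0.469 and 0.079). The level of clone R1 thus lay within the Ofd1 mutant range, so the Sufu level does not separate R1 from the Ofd1 mutants. Gli1, the standard Hedgehog target, fell to 8.25 ± 0.809 CPM with sonidegib, against 229 ± 12.3 CPM in parental cells (edgeR adjusted p = 0.00287). In bulk RNA, fewer cells of a type and less RNA per cell cannot be told apart, and this holds for each value that follows.

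**Figure D1:**
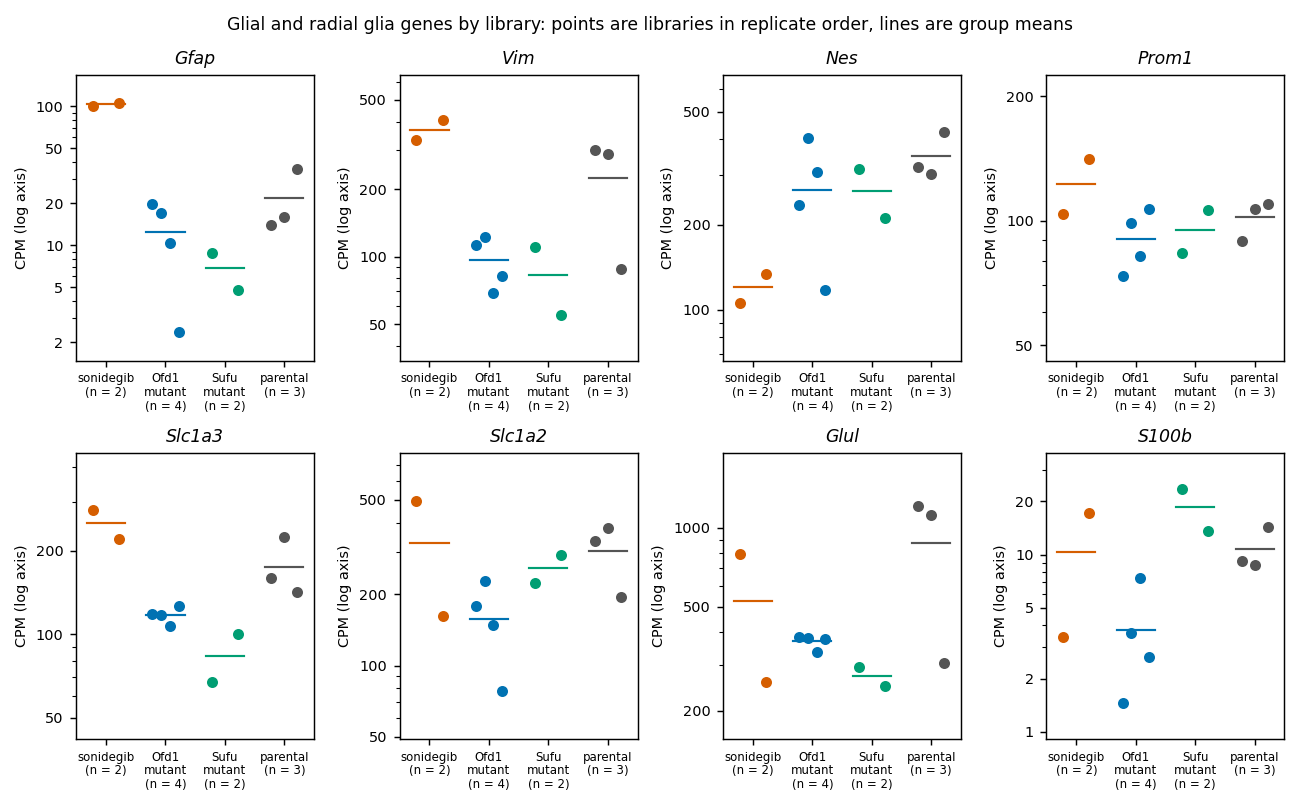
Level in CPM (log axis) of 8 of the 10 genes in each library, as points in replicate order from left to right, with lines at group means. Gfap is at 101 and 106 CPM with sonidegib and at or below 35.5 CPM in the other 9 libraries, while parental libraries 1 and 2 lie far above parental library 3 for Vim and Glul.

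Gfap encodes the intermediate filament of astrocytes, Vim the vimentin filament of radial glia and many other cells, and Nes the nestin filament of neural stem cells. Their proximal promoters are printed because these 3 filament genes lay on different sides of the parental libraries after the drug. Each run covers 250 bases before and 50 bases after the annotated start, read 5′ to 3′ on the gene's own strand, from RefSeq for build GRCm38.p6.
Gfap, chr11:102897151-102897450, minus strand: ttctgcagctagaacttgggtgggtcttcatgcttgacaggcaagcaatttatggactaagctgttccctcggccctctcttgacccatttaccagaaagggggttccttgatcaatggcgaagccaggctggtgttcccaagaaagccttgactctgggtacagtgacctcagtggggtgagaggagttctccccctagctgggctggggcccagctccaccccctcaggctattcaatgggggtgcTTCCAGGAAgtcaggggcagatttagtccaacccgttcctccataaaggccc
Vim, chr2:13574061-13574360, plus strand: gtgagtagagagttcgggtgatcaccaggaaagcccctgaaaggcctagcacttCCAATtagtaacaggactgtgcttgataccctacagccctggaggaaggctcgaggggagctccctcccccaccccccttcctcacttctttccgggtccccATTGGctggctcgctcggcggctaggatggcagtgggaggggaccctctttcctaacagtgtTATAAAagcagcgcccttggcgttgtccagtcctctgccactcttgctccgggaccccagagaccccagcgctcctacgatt
Nes, chr3:87970843-87971142, plus strand: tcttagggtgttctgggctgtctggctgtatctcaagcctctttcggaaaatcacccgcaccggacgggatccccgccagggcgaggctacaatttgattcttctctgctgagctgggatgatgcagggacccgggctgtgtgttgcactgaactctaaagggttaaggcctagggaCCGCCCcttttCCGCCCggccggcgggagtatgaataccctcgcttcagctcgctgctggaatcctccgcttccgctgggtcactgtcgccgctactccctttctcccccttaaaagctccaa
Capitals mark the matches to 5 short motifs that were searched on both strands, and no 2 matches overlapped. The searched letters were the Gli motif GACCACCCA, the STAT motif TTCNNNGAA, the CCAAT box CCAAT, the GC box GGGCGG and the TATA box TATAAA. Of 32851 mouse promoters of the same length, these were held by 0.253%, 8.3%, 37.4%, 35.7% and 13.6%, in that order. The Gfap window held 1 STAT match, beginning at -2 from the start. The Vim window held CCAAT matches at -196 and -94 and a TATA match at -32. The Nes window held GC box matches at -73 and -62. The letters of the Gli motif were in none of the 3 windows, and a match or its absence says nothing here about binding. Of the 10 genes, 9 had an entry in the promoter table.

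Gfap was the most variable of the 8 genes detected in every library, with 44.8 times as much in the highest library as in the lowest. It was at 101 and 106 CPM in sonidegib libraries 1 and 2. In Ofd1 mutants it was at 19.8 and 17.1 CPM in the R14 libraries, 10.4 in R16 and 2.36 in R25. It was at 8.86 and 4.79 CPM in Sufu mutant clones R13 and R1, and at 14, 15.9 and 35.5 CPM in parental libraries 1, 2 and 3. Both drug-treated libraries were therefore above every other library, both Sufu mutant libraries were below every parental one, and Ofd1 mutants spanned the lower part of the parental range and beneath it. With sonidegib the level was 4.72-fold that of parental cells (log2 fold change 2.24 ± 0.41 SE), which did not pass the edgeR test over all genes (adjusted p = 0.105). Against parental cells the log2 fold change of Gfap was -0.81 ± 0.62 SE in Ofd1 mutants (adjusted p = 0.623) and -1.66 ± 0.52 SE in Sufu mutants (adjusted p = 0.446). The drug difference of Gfap was 2.23 without sonidegib library 1, and 2.73 between sonidegib library 1 and parental libraries 1 and 2. In each fit the lone drug library is assumed to vary like the controls. The first rests on sonidegib library 2, where deviations ran with exon length, and the second on the libraries that stood apart on the second principal component. Summed markers of other cells were also above the parental range: the 12 granule cell progenitor markers were at 4175 and 4672 CPM with sonidegib and 2320.2 to 2796 in parental cells, with 7 of 11 tested ones above every parental library, beside 18.0% of all genes tested, and 0 below. Of these 11, 0 were called by edgeR, beside 0.0652% of all genes. At an unadjusted p under 0.05 there were 6, all higher, beside 14%, and DESeq2 called 3, all higher, beside 5.17%. The 12 neuron markers summed to 1555 and 1929 CPM with sonidegib and 1050.1 to 1353 in parental cells, and their members lay on both sides. Of 11 tested neuron markers 4 were above every parental library and 2 below, Rbfox3 (log2 fold change -0.58 ± 0.22 SE) and Grin2b (-2.16 ± 0.70 SE), beside 18.0% and 16.3% of all genes. By edgeR 0 were called, 3 were higher and 2 lower at an unadjusted p under 0.05, and DESeq2 called Neurod2 higher and Grin2b lower. The shares of all genes were again 0.0652%, 14% and 5.17%. The part of either list in the Gfap values was not tested.

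Nes, by contrast, was lower in both drug-treated libraries. It was at 106 and 134 CPM in sonidegib libraries 1 and 2. Ofd1 mutants had 235 and 402 CPM in the R14 libraries, 307 in R16 and 118 in R25. Sufu mutants had 314 CPM in R13 and 210.4 in R1, and parental libraries 1, 2 and 3 had 318, 302 and 422 CPM. Drug-treated libraries were below all parental and Sufu mutant libraries, and among the clones R25 alone reached the drug-treated range. The level with sonidegib was 2.9-fold below that of parental cells (log2 fold change -1.54 ± 0.25 SE, edgeR adjusted p = 0.0874). Leaving out sonidegib library 1 gave -1.42, and parental libraries 1 and 2 with sonidegib library 1 alone gave -1.56, each with 1 drug library left. After each library's dependence on exon length was removed, the Nes value was -1.25 (adjusted p = 0.136). Nes was at -0.38 ± 0.35 SE in Ofd1 mutants and -0.39 ± 0.24 SE in Sufu mutants against parental cells, and neither passed the edgeR test (adjusted p = 0.69 and 0.641).

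Vim lay on the same side as Gfap with sonidegib, but its parental libraries split the other way. Its level was 329.8 and 405 CPM with sonidegib, and in Ofd1 mutants 113 and 122 CPM in the R14 libraries, 68.6 in R16 and 81.9 in R25. Sufu mutants had 110.2 CPM in R13 and 54.9 in R1. Parental libraries 1, 2 and 3 had 298, 287 and 88 CPM. Both drug-treated libraries lay above the parental ones, while every clone lay well below parental libraries 1 and 2 and around parental library 3. Parental libraries 1 and 2 averaged 3.32 times the level of library 3, a gap that only 1.7% of tested genes matched. The log2 fold change of Vim was 0.70 ± 0.49 SE with sonidegib (edgeR adjusted p = 0.501). It was -1.21 ± 0.39 SE in Ofd1 mutants (adjusted p = 0.22) and -1.42 ± 0.58 SE in Sufu mutants (adjusted p = 0.509). Against parental library 3 alone the Vim values were 0.14 in Ofd1 mutants and -0.08 in Sufu mutants. Without that library, the Ofd1 mutant value was -1.60 and passed the test (adjusted p = 0.0217).

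Prom1, which encodes the membrane protein CD133 of neural stem cells, was the steadiest of the list. It was at 104 and 141 CPM with sonidegib, and at 73.4, 98.9, 82.2 and 107 CPM in Ofd1 libraries 1 to 4. Sufu mutants had 83.5 and 106 CPM, and parental cells had 89.2, 107 and 109.5 CPM. All groups overlapped, and the highest library had 1.93 times the level of the lowest. The log2 fold changes against parental cells were 0.26 ± 0.22 SE with sonidegib, -0.16 ± 0.15 SE in Ofd1 mutants and -0.09 ± 0.17 SE in Sufu mutants. None passed the edgeR test (adjusted p = 0.572, 0.707 and 0.886), and the Sufu mutant value was 0.06 without clone R13.

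Slc1a3 (GLAST) and Slc1a2 (GLT-1) are the glial transporters that clear glutamate, and Glul is glutamine synthetase, which turns that glutamate into glutamine. Slc1a3 was at 281 and 220.4 CPM with sonidegib, and at 118, 117, 107 and 126 CPM in Ofd1 libraries 1 to 4. It was at 67.2 and 100.4 CPM in Sufu mutant clones R13 and R1, and at 159.7, 224 and 142 CPM in parental libraries 1, 2 and 3. All 6 clone libraries were below all 3 parental ones, and Ofd1 mutants were above both Sufu mutants. The log2 fold change against parental cells was -0.57 ± 0.16 SE in Ofd1 mutants (edgeR adjusted p = 0.169) and -1.05 ± 0.27 SE in Sufu mutants (adjusted p = 0.368). It was 0.51 ± 0.27 SE with sonidegib (adjusted p = 0.412) and 0.46 ± 0.18 SE for Ofd1 over Sufu mutants (adjusted p = 0.528). The 3 comparisons with parental cells share those controls.

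Slc1a2 was at 494 CPM in sonidegib library 1 and 162 in library 2, a 3.05-fold gap within the group. Ofd1 mutants had 178 and 227 CPM in the R14 libraries, 148 in R16 and 78.3 in R25. Sufu mutants had 222 CPM in R13 and 293 in R1, and parental libraries had 335, 381 and 195 CPM. The drug-treated libraries lay on either side of the parental ones, and 3 of the 4 Ofd1 libraries were below all parental libraries. The merged exons of Slc1a2 span 12.1 kb, the most in the list, and sonidegib library 2 was the one in which long genes read low. With the length trend removed, the drug value was 0.42, against 0.11 ± 0.50 SE without that step, and neither passed the edgeR test (adjusted p = 0.577 and 0.923). In Ofd1 mutants the log2 fold change was -0.94 ± 0.34 SE (adjusted p = 0.271), and in Sufu mutants it was -0.22 ± 0.30 SE (adjusted p = 0.836). Without sonidegib library 1 the drug value of Slc1a2 was -0.96, and without library 2 it was 0.68. It was -0.15 without parental library 3, so its direction rested on which library was kept.

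Glul split the libraries in another way. It was at 792 CPM in sonidegib library 1 and 259 in library 2. The 4 Ofd1 libraries were tight, at 384, 380.4, 337 and 378 CPM, with the 3 clones within 1.53-fold of each other and of the Sufu clones. Sufu mutants had 294 CPM in R13 and 249.9 in R1, while parental libraries 1, 2 and 3 had 1209, 1122 and 304 CPM. Parental libraries 1 and 2 and sonidegib library 1, the same 3 that stood apart on the second principal component, were thus the only ones above 384 CPM. Parental libraries 1 and 2 averaged 3.84 times library 3, and 1.22% of tested genes differed as much. The log2 fold change against parental cells was -0.74 ± 0.68 SE with sonidegib, -1.24 ± 0.39 SE in Ofd1 mutants and -1.68 ± 0.58 SE in Sufu mutants (edgeR adjusted p = 0.601, 0.211 and 0.467). The drug value of Glul was -1.82 without sonidegib library 1 and -0.17 without library 2. Against parental library 3 alone, Glul was at 0.29 in Ofd1 mutants and -0.15 in Sufu mutants. Without parental library 3, both clone classes passed the test, at -1.66 in Ofd1 mutants (adjusted p = 0.00187) and -2.08 in Sufu mutants (adjusted p = 0.0488). Ofd1 mutants were above Sufu mutants in every library (0.43 ± 0.13 SE, adjusted p = 0.447).

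S100b, a calcium-binding protein of astrocytes, had the largest fold change between the clone classes of the 8 genes tested there. It was at 3.44 CPM in sonidegib library 1 and 17.2 in library 2. Ofd1 mutants had 1.46 and 3.62 CPM in the R14 libraries, 7.38 in R16 and 2.65 in R25. Sufu mutants had 23.4 CPM in R13 and 13.5 in R1, and parental libraries had 9.18, 8.71 and 14.3 CPM. All 4 Ofd1 libraries were below all Sufu mutant and all parental libraries, and the drug-treated libraries were on either side of the parental ones. Ofd1 mutants were 4.98-fold below Sufu mutants (log2 fold change -2.32 ± 0.57 SE, edgeR adjusted p = 0.37) and 2.83-fold below parental cells (-1.50 ± 0.49 SE, adjusted p = 0.227). Sufu mutants were at 0.80 ± 0.34 SE against parental cells (adjusted p = 0.53). With sonidegib the S100b value was -0.07 ± 0.64 SE (adjusted p = 0.96), and it was 0.63 without sonidegib library 1 and -1.66 without library 2. It was also 0.17 without parental library 3.

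Fabp7, the brain lipid-binding protein of radial glia, was barely detected. It had 84 and 37 counts in sonidegib libraries 1 and 2, and 0, 0, 1 and 3 counts in Ofd1 libraries 1 to 4. Sufu mutants had 5 counts in R13 and 40 in R1, and parental libraries had 30, 44 and 2 counts. In CPM the drug-treated libraries were at 2.8 and 1.1, every Ofd1 mutant library was at or below 0.0779, Sufu mutants were at 0.2 and 1.68, and parental libraries were at 0.949, 1.17 and 0.0591. A count of 0 in an R14 library allows up to 0.0944 CPM in the first and 0.0921 in the second. Fabp7 passed the low-count filter only in the sonidegib and Sufu mutant comparisons, at log2 fold changes of 1.42 ± 0.99 SE (edgeR adjusted p = 0.501) and 0.38 ± 1.21 SE (adjusted p = 0.939). Without 1 library in turn, the drug value of Fabp7 ran from 0.54, without sonidegib library 1, to 1.92. The Sufu mutant value was -1.83 without clone R1, 1.21 without R13 and -0.17 without parental library 3, so its direction rested on single libraries. Every Ofd1 library was below both Sufu mutant libraries, a difference that was not tested. Without parental library 3, Fabp7 passed the filter in the Ofd1 mutant comparison only through its counts in parental libraries 1 and 2, which fixes the direction, so no call is read from it.

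Aqp4, the water channel of astrocyte end-feet, had 0 counts in 9 of 11 libraries. It had 1 count in the second R14 library and 2 in R25, and was not tested in any comparison. A count of 0 allows up to 0.0784 to 0.123 CPM, depending on the library.

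**Figure D2:**
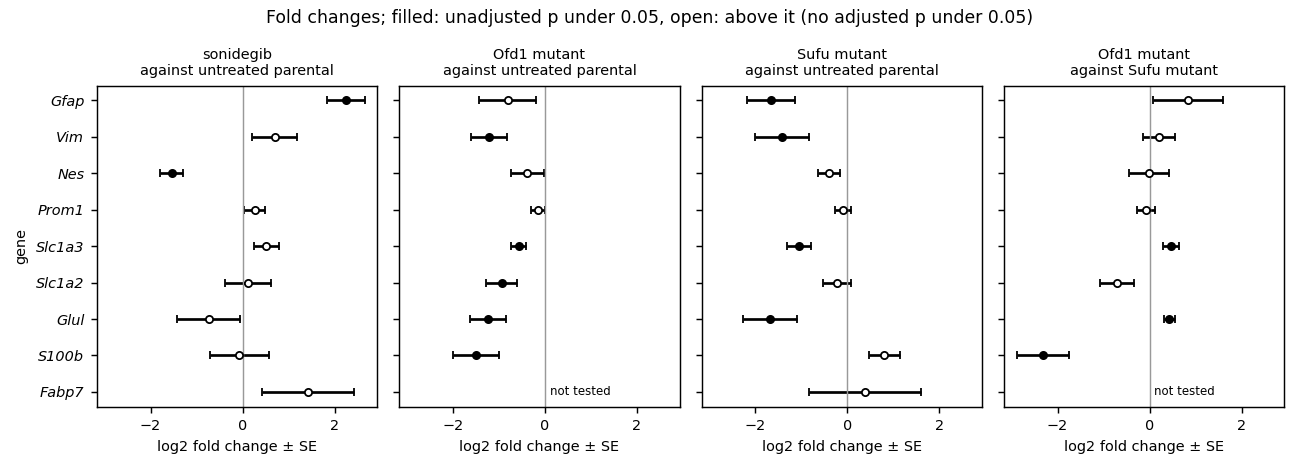
Log2 fold change with its standard error for the 9 genes tested in at least 1 comparison, in 4 panels. Filled points had an unadjusted p under 0.05 and open points did not, and no point had an adjusted p under 0.05, with Gfap at 2.24 and Nes at -1.54 with sonidegib, and S100b at -2.32 for Ofd1 over Sufu mutants.

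Set over the whole list, sonidegib changed 0 of the 9 tested genes by edgeR at an adjusted p under 0.05, where 0.0652% of all 13809 tested genes were called, 0.00724% higher and 0.0579% lower. At an unadjusted p under 0.05 there were 2, Gfap and Nes, beside 14% of all genes, and DESeq2 called the same 2, beside 5.17% of all genes. Every drug-treated library was above every parental one for Gfap and Vim, beside 18.0% of all genes, and below for Nes, beside 16.3%. The groups did not overlap for 3 of 9 genes, and 34.3% of all tested genes did the same. Their median log2 fold change was 0.26, against 0.04 for all genes tested. Leaving out sonidegib library 1 gave 2 calls, Gfap and Nes, where 23.0% of all genes were called. The count without overlap was then 7, beside 79.0% of all genes. That count was also 7 without sonidegib library 2, beside 58.3%, and 5 without parental library 2, beside 39.7%.

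In Ofd1 mutants, 0 of the 8 tested genes were called against parental cells by edgeR, where 0.363% of 13779 genes were. At an unadjusted p under 0.05 there were 5, Vim, Slc1a3, Slc1a2, S100b and Glul, each lower in the mutants, beside 13.8% of all genes. DESeq2 called 5, namely Vim, Slc1a3, Fabp7, S100b and Glul, beside 5.48% of all genes, with Fabp7 measurable in parental libraries 1 and 2 alone. Slc1a3 and S100b were below every parental library, beside 7.25% of all genes, and no tested gene of the list was above every parental library, beside 6.17%. The groups thus did not overlap for 2 of 8 genes, and 13.4% of all tested genes did the same. The median log2 fold change of the 8 genes was -0.87, against 0.01 for all genes. Without parental library 3, edgeR called Vim and Glul lower, where 2.36% of all genes were called, Fabp7 aside. Then 5 genes had no overlap, beside 32.3% of all genes, and against that library alone edgeR called none of the list.

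In Sufu mutants, 0 of 9 tested genes were called against parental cells by edgeR, where 0% of 13854 genes were. At an unadjusted p under 0.05 there were 4, Gfap, Vim, Slc1a3 and Glul, each lower in the mutants, beside 9.68% of all genes, and DESeq2 called Gfap, Slc1a3 and Glul, beside 2.31%. The same 3 lay below every parental library, beside 14.8% of all genes, and none lay above, beside 11.9%. The groups thus did not overlap for 3 of 9 genes, and 26.7% of all tested genes did the same. The median log2 fold change was -0.39, against 0.00 for all genes. Without parental library 3, edgeR called Glul, where 0.0812% of all genes were called, and 6 genes had no overlap, beside 49.9%. The count without overlap was also 6 without clone R13, beside 62.1% of all genes, and 5 without clone R1, beside 54.1%.

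Between the clone classes, 0 of 8 tested genes were called in Ofd1 against Sufu mutants by edgeR, where 0.00713% of 14026 genes were. At an unadjusted p under 0.05 there were 3, Slc1a3, Glul and S100b, beside 8.93% of all genes, and DESeq2 called S100b, beside 1.85%. Ofd1 mutants were above both Sufu mutants for Slc1a3 and Glul, beside 9.85% of all genes, and below for S100b, beside 8.34%. The groups did not overlap for these 3 of 8 genes, and 18.2% of all tested genes did the same. The count without overlap was 5 without clone R13, beside 53.6% of all genes.

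The spread of levels between clones depended on the gene. Between the 5 clones, taking R14 as the mean of its libraries, the highest level was 9.23 times the lowest for S100b, 7.83 for Gfap and 3.75 for Slc1a2. The ratio was 2.69 for Nes, 2.14 for Vim, 1.88 for Slc1a3, 1.53 for Glul and 1.3 for Prom1. Parental libraries spanned more than the clones for Glul (304 to 1209 CPM) and Vim (88 to 298 CPM), and less for the other genes. Each clone but R14 gave 1 library, so differences between clones and between libraries cannot be told apart. R25 had the lowest Gfap, Nes and Slc1a2 of the 5 clones, while its Slc1a3, at 126 CPM, was the highest. The 2 libraries of clone R14 were within 1.35-fold of each other for Gfap, Vim, Slc1a3, Slc1a2, Glul and Prom1. Between them Nes differed 1.71-fold and S100b 2.48-fold.

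For Gfap, Vim, Glul and S100b, the genes with the most similar profile were looked up among 10376 genes of at least 5 CPM, by the mean absolute difference in centred log2(CPM + 0.5) over the 11 libraries. This is a description over libraries that share groups and depth. Nearest to Gfap were Trnp1, at a mean difference of 0.47, Rnd2 at 0.49 and Foxj1 at 0.63, where Gfap itself deviated from its mean by 1.15 on average. Trnp1, known from radial glia, averaged 106 ± 28.4 CPM with sonidegib, 14.8 ± 2.92 in Ofd1 mutants, 10.2 ± 2.39 in Sufu mutants and 23.5 ± 1.99 in parental cells (SD, n = 2, 4, 2 and 3). Foxj1, a regulator of motile cilia and an ependymal marker, was at 15.4 and 39.1 CPM with sonidegib and 7.38 to 9.53 in parental cells, while the ependymal genes Tmem212 and Ccdc153 had 0 counts in every library. The 10 ependyma and choroid plexus markers summed to 75.3 and 76.5 CPM with sonidegib, 35 to 52.9 in Ofd1 mutants, 35.9 and 36.9 in Sufu mutants and 45.5 to 52.4 in parental cells, and their part in the Gfap values was not tested. These sums were mostly Otx2 and Foxj1, at means of 46.6 and 27.2 CPM with sonidegib and 38.5 and 8.12 CPM in parental cells. In each group 3 of the 10 markers had a mean of at least 1 CPM.

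Nearest to Glul were Gclm at 0.14, Abcd3 at 0.21 and Dnttip2 at 0.23, against a mean deviation of 0.67 for Glul. Gclm, a subunit of the enzyme that starts glutathione synthesis, was at 84.6 and 24.9 CPM in sonidegib libraries 1 and 2, and at 30.8 to 37.7 CPM in Ofd1 mutants. It was at 24.4 to 32.7 CPM in Sufu mutants and 29.2 to 92.8 in parental cells. It shared the gap between libraries 1 and 2 of the drug group that Glul showed. Nearest to Vim were Grhl3 and Cnn3, each at 0.26, and Ldhb at 0.29, against a mean deviation of 0.87. Nearest to S100b were Sfrp1 at 0.48, Col4a1 at 0.56 and Ramp2 at 0.64, against 0.94. Sfrp1, a secreted Wnt antagonist, averaged 246 ± 14.7 CPM with sonidegib, 174 ± 84.8 in Ofd1 mutants, 492 ± 341 in Sufu mutants and 413 ± 139.9 in parental cells (SD, n = 2, 4, 2 and 3).

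**Figure D3:**
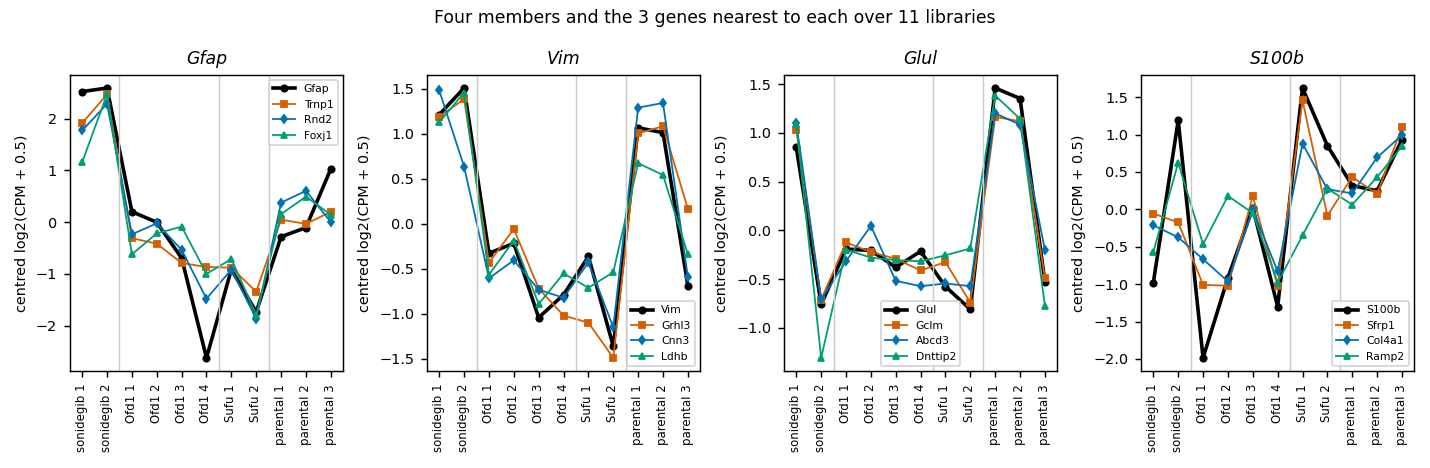
Centred log2(CPM + 0.5) of Gfap, Vim, Glul and S100b (black) and of the 3 genes nearest to each (coloured) in the 11 libraries, with thin vertical lines between groups. Glul and its 3 nearest genes are high in sonidegib library 1 and parental libraries 1 and 2 and low in the other 8.

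Other glial genes were read from lists of their own. Of 16 tested astrocyte genes outside the 10, edgeR called 0 with sonidegib, 0 in Ofd1 mutants and 0 in Sufu mutants, each against parental cells. At an unadjusted p under 0.05, 2 were higher and 1 lower with sonidegib, 3 higher and 5 lower in Ofd1 mutants and 2 higher and 5 lower in Sufu mutants. The shares of all genes were 14%, 13.8% and 9.68%, and they stand behind the unadjusted counts of the lists that follow too. DESeq2 called 1 lower with sonidegib, 3 higher and 3 lower in Ofd1 mutants and 2 lower in Sufu mutants, beside 5.17%, 5.48% and 2.31% of all genes. Gjb6 had 0 counts in every library. Sparcl1, a secreted astrocyte matrix protein, was at 69.9 and 93 CPM with sonidegib and 169 to 301 in parental cells (log2 fold change -1.55 ± 0.31 SE, adjusted p = 0.118). Cst3, an astrocyte cysteine protease inhibitor, was higher in both, at 141 and 373 CPM with sonidegib and 98.4 to 107 in parental cells (1.30 ± 0.38 SE, adjusted p = 0.235). Aldoc, the brain aldolase of astrocytes, was at 104 and 160.4 CPM with sonidegib, 78.7 to 132 in Ofd1 mutants, 60.1 and 43.5 in Sufu mutants and 50.1 to 88.8 in parental cells (0.87 ± 0.31 SE with sonidegib, adjusted p = 0.311). The remaining genes of this paragraph were picked after their values were seen. Mlc1, an astrocyte membrane protein, was at -2.01 ± 0.66 SE in Ofd1 mutants and -2.32 ± 0.61 SE in Sufu mutants, while the metallothionein Mt1 was at 2.63 ± 0.60 SE and 1.90 ± 0.78 SE. None of these 4 values passed the edgeR test (adjusted p = 0.233, 0.382, 0.114 and 0.515).

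Of the Bergmann glia list, edgeR called 2 of 8 tested genes in Ofd1 mutants against parental cells, both lower. The share called of all genes was 0.363%. At an unadjusted p under 0.05, 1 gene of this list was higher and 2 lower. DESeq2 also called 1 higher and 2 lower, beside 5.48% of all genes. With sonidegib edgeR called 0 of 7 and in Sufu mutants 0 of 8, with 2 and 4 at an unadjusted p under 0.05. DESeq2 called 1 and 2 there, beside 5.17% and 2.31% of all genes. Kcnj10, the glial potassium channel Kir4.1, was at 0.373, 0.588, 0.813 and 0.571 CPM in Ofd1 libraries 1 to 4, against 6.61, 6.4 and 2.72 CPM in parental libraries (log2 fold change -3.15 ± 0.42 SE, edgeR adjusted p = 0.0402). Itih3, a hyaluronan-binding inhibitor chain, was at 0, 0.155, 0.325 and 0.26 CPM in Ofd1 mutants, against 4.97, 4.86 and 3.37 CPM in parental cells (-4.53 ± 0.70 SE, adjusted p = 0.0487). Every Ofd1 library was below every parental one for both genes. Itih3 was also at 0.133 and 0.268 CPM with sonidegib (-4.43 ± 0.60 SE, adjusted p = 0.0847). Kcnj10 was at 0.962 and 0.966 CPM in Sufu mutants (-2.42 ± 0.54 SE, adjusted p = 0.327). Both Ofd1 mutant calls were lost when the R14 libraries were summed to 1 (adjusted p = 0.0879 for Kcnj10 and 0.0756 for Itih3) and against parental library 3 alone (-2.20 and 0.391 for Kcnj10, -4.15 and 0.405 for Itih3, as log2 fold change and adjusted p). They were also lost without parental library 1 or 2 and without Ofd1 library 2 or 3, at adjusted p from 0.0672 to 0.251, and that of Kcnj10 without Ofd1 library 1 (adjusted p = 0.0751). In 1 model over all 11 libraries that of Itih3 had adjusted p = 0.0623.

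Among intermediate filament partners, edgeR called 1 of 11 tested genes in Ofd1 mutants, Ina, which was lower, beside 0.363% of all genes. At an unadjusted p under 0.05, 2 of the 11 were higher and 1 lower. DESeq2 also called 2 higher and 1 lower, beside 5.48% of all genes. Ina, a filament of neurons, fell to 12.3, 7.33, 9.01 and 7.73 CPM in Ofd1 libraries, against 28.4, 27.6 and 19 CPM in parental libraries (log2 fold change -1.45 ± 0.23 SE, adjusted p = 0.0487). This call was lost without any 1 of parental libraries 1 and 2 and Ofd1 libraries 1, 2 and 3 (adjusted p from 0.0647 to 0.266), and in 1 model over all 11 libraries (0.166). It was also lost with the R14 libraries summed (0.0872), against parental library 3 alone (0.448) and with DESeq2's size factors (0.0508). With sonidegib and in Sufu mutants 0 of 10 partners were called, with 2 and 1 at an unadjusted p under 0.05 and 0 by DESeq2 in each. Of the glutamate and glutamine handling genes, 0 of 12 were called with sonidegib, 0 of 13 in Ofd1 mutants and 0 of 13 in Sufu mutants, with 3, 3 and 1 at an unadjusted p under 0.05 and 0 by DESeq2 in each.

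The stem, transcription factor and reactive lists held no call by edgeR against parental cells. In the order sonidegib, Ofd1 mutant and Sufu mutant, 5 of 16, 2 of 15 and 3 of 16 radial glia and neural stem genes had an unadjusted p under 0.05. With sonidegib 1 of these was higher and 4 lower, and those of both clone classes were lower. The median log2 fold changes of the stem genes were -0.07, -0.13 and -0.26, against 0.04, 0.01 and 0.00 for all genes. At the same threshold there were 2, 1 and 2 of 12 gliogenic transcription factors, and 0 of 8, 1 of 7 and 0 of 9 reactive astrocyte genes. DESeq2 called 2, 2 and 2 of the stem genes, all lower, 1, 0 and 0 of the factors and 0 reactive genes in each. The shares of all genes it called were 5.17%, 5.48% and 2.31%. Nfib, a gliogenic factor and the most abundant of its list, was at 1252 and 1356 CPM with sonidegib, 1001 to 1519 in Ofd1 mutants, 944 and 1078 in Sufu mutants and 1197 to 1294 in parental cells. Sox2, the neural stem cell factor, was chosen after its values were seen. It was at 17 and 8.22 CPM with sonidegib, 0.745, 3.68, 6.57 and 3.11 in Ofd1 libraries, 10.7 and 12.8 in Sufu mutants and 31.9, 34.5 and 23.5 in parental cells. All 8 treated or mutant libraries were below the 3 parental ones, and the log2 fold changes of Sox2 were -1.25 ± 0.39 SE, -3.08 ± 0.55 SE and -1.34 ± 0.24 SE (edgeR adjusted p = 0.256, 0.0619 and 0.247).

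**Figure D4:**
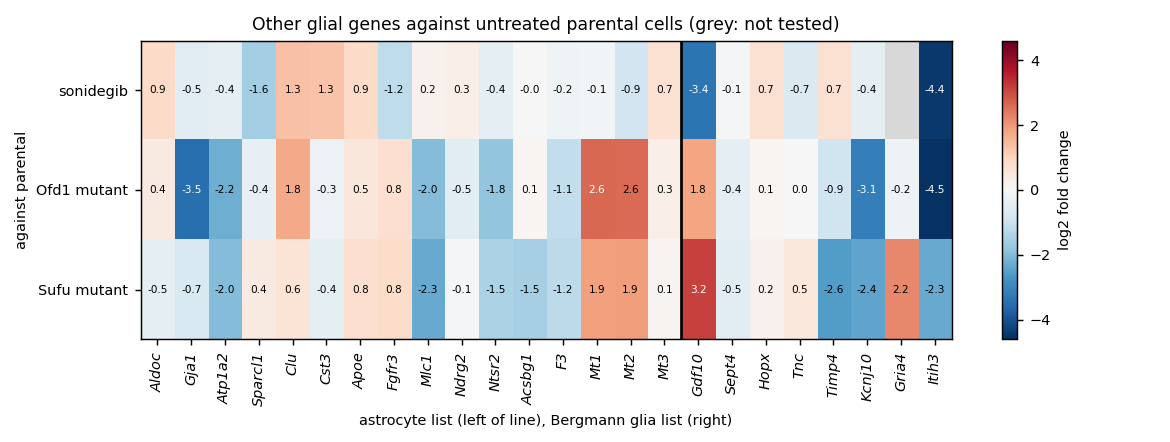
Log2 fold change against parental cells of other astrocyte genes (left of the line) and Bergmann glia genes (right), with each value printed in its cell and grey where a gene was not tested. Itih3 is at or below -2.3 in all 3 rows, and Mt1 and Mt2 are higher in both clone classes with values of 1.90 to 2.63.

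Markers of other cell types in the cultures were read beside these values. Summed microglia and macrophage markers were at 1.57 and 2.2 CPM with sonidegib, 1.21 to 2.02 in Ofd1 mutants, 2.18 and 2.28 in Sufu mutants and 1.21 to 1.39 in parental cells, and P2ry12 was at 0 throughout. Summed endothelial markers ran from 2 to 15.3 CPM over the groups with Cldn5 at 0. Summed oligodendrocyte lineage markers were at 84.9 and 134 CPM with sonidegib, 251 to 448 in Ofd1 mutants, 218 and 494 in Sufu mutants and 174 to 409 in parental cells, with Mag at 0. Most of this sum was the 1 gene Pdgfra, at means of 64.9, 283, 325 and 219 CPM in that order. Summed fibroblast and pericyte markers were at 6.82 and 32 CPM with sonidegib, 18.1 to 32.4 in Ofd1 mutants, 11.4 and 43 in Sufu mutants and 20.9 to 43.3 in parental cells. Against parental cells edgeR called 1 marker of another type in Ofd1 mutants on each of 2 lists, beside 0.363% of all genes. These were Syt1, higher, of 11 tested neuron markers and Thy1, higher, of 4 tested fibroblast and pericyte markers. Both lists were mixed. At an unadjusted p under 0.05, 4 neuron markers were higher and 4 lower, and 2 fibroblast markers higher and 1 lower, beside 13.8% of all genes. DESeq2 called 3 neuron markers higher and 3 lower, and 1 fibroblast marker higher and 1 lower, beside 5.48%. Of 6 Hedgehog targets edgeR called Gli1 and Hhip lower with sonidegib, beside 0.0579% of all genes. The 10 glial genes summed to 1446 and 2214 CPM with sonidegib, 895 to 1368 in Ofd1 mutants, 1035 and 1123 in Sufu mutants and 1309.9 to 2448 in parental cells. Both Sufu mutant libraries were thus below the parental range for that sum, and Ofd1 mutants overlapped it.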

How the data were processed

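The authors deposited raw counts for 11 libraries in 1 table, by gene symbol. Libraries were stranded poly(A) libraries from 500 ng of RNA, read from 1 end at 75 bases, per the labels' protocols. STAR, DESeq2 and build mm9 are named in the submitters' processing notes, while no version, counting tool or annotation is given there. Of 22620 entries, 1 named no gene, took 0.0131% to 0.0192% of each library and was dropped. Groups were compared pairwise with the edgeR 4.0.16 quasi-likelihood test in R 4.3.3 (robust fit, TMM factors, filterByExpr), two-sided, on the libraries of both groups. P-values were adjusted by Benjamini-Hochberg over all genes tested, and a gene was called at an adjusted p under 0.05. The procedure was tested on simulated data. The standard error of a log2 fold change was derived from its F statistic. Alternatives were DESeq2 1.42.0, other size factors, no filter, all 11 libraries in 1 model, removal of the trend on transcript length, replicate blocks, R14 libraries summed, other control sets and leaving out each library. Counts without overlap between groups were added as a result after the data were seen.

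Exon lengths came from GENCODE M21 basic on GRCm38, which is not the build of the reads, so no positions of counted reads are given. All listed genes were named. From other lists, genes that passed the test and up to 3 of the highest level were named, and genes outside this rule are marked in the text. The values of 1 further gene of these lists are not reported here. The 3 nearest genes were named for members with a mean of at least 5 CPM and an SD of log2 CPM of at least 0.75. The genes and lists were chosen with earlier results of these data known. The 2 libraries of clone R14 differed by more than counting noise, at a chi-square of 37.9 per gene, and were kept as 2 samples.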

Additional observations from a re-analysis of the deposited data

Results flagged for a closer look

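The 4 Ofd1 mutant libraries were checked for a stray library in 11 genes, the detected genes of the list with Itih3, Kcnj10 and Ina, and 1 gene stood out. Glul in clone R16 (Ofd1 library 3) was at 337 CPM, against 384, 380.4 and 378 CPM in the other Ofd1 libraries. Its gap to the nearest library was 0.885 of the range of the group. Chance marks about 1 in 20 groups of independent values in this way. The libraries at 384 and 380.4 CPM share clone R14, so the values of this group are not independent. The rate for such a group was not tested. With 11 genes checked, 1 mark can also arise by chance.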

How the results depend on the processing

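Values were counted over combinations of gene, comparison and setting, which share libraries. Single-gene values kept their direction and their side of the threshold in 399 combinations, passed the threshold in 26 more, lost it in 23 and turned in 20. Counts of calls moved far more, and the cause was not tested. With sonidegib, 9 genes were called, against 711 with DESeq2, 109 without the filter, 316 in 1 model over all libraries, 109 with the length trend removed, 1393 with parental libraries 1 and 2 and sonidegib library 1 only, and 0 to 3263 without 1 library in turn. Of the listed genes, 0 were called, against 2 with DESeq2, 1 (Nes) without the filter, 4 with those 3 libraries only (Gfap higher, Nes, S100b and Glul lower), and 0 to 2 without 1 library. In Sufu mutants, 0 genes were called, against 320 with DESeq2, 3 without the filter and 0 to 11 without 1 library, and of the listed genes 3 with DESeq2 and 0 to 1 without 1 library. In Ofd1 mutants, 50 genes were called, against 770 with DESeq2, 84 without the filter, 9 in 1 model over all libraries, 1 with the R14 libraries summed, 0 against parental library 3 alone and 0 to 329 without 1 library, and of the listed genes 5 with DESeq2 and 0 to 3 without 1 library. In Ofd1 against Sufu mutants, 1 gene was called, against 266 with DESeq2, 2 without the filter, 0 with the R14 libraries summed and 0 to 11 without 1 library, and 1 listed gene, S100b, was called with DESeq2. Listed genes without overlap ranged, without 1 library in turn, from 3 to 7 with sonidegib, 4 to 6 in Sufu mutants, 2 to 5 in Ofd1 mutants and 3 to 5 between the clone classes. Against parental library 3 alone, Slc1a2 turned to 0.41 in Sufu mutants, and Vim to 0.14 and Glul to 0.29 in Ofd1 mutants. Nes between the clone classes turned to 0.02 without the filter and 0.01 in 1 model over all libraries. Without 1 library in turn, the log2 fold change with sonidegib ran from -0.96 to 0.68 for Slc1a2 and -1.66 to 0.63 for S100b. In Sufu mutants it ran from -1.83 to 1.21 for Fabp7 and -0.27 to 0.06 for Prom1. Between the clone classes it ran from -0.28 to 0.32 for Nes, -0.21 to 0.80 for Vim and -0.24 to 0.09 for Prom1. Where 1 library was left in a group, it was assumed to vary like the other group.

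Whether replicate numbers pair the samples could not be decided. Deviations from group means of same-numbered sonidegib and parental libraries correlated at 0.26 and -0.32, and those of R14 and parental libraries at 0.12 and -0.16. With 2 sonidegib libraries, the deviations of library 2 mirror those of library 1, which also correlated at 0.32 with parental library 2. The opposite signs therefore say nothing about pairing. With the replicate number as a block, 97 genes were called with sonidegib and 1 listed gene, Gfap, at 2.78, while Slc1a2 turned to -0.34. A block fit on clone R14 and parental libraries covers 1 clone, with its 2 libraries as replicates, and does not speak for the Ofd1 mutants as a group. There 1583 genes were called over all tested, 6 of them listed (Vim, Slc1a3, Slc1a2, Fabp7, S100b and Glul lower), and Gfap turned to 0.30. Fabp7, in that count and in the 3 above, passed the filter only through parental counts. The depth limits Fabp7 and Aqp4, at 0.0784 to 0.123 CPM for a count of 0.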

Other observations

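Nfix, a gliogenic factor of the list singled out after its values were seen, was at 229 CPM in sonidegib library 1 and 12.9 in library 2, against 156 to 217 CPM in Ofd1 mutants, 139 and 140.4 CPM in Sufu mutants and 179.5 to 216 CPM in parental cells. Cd44, of the reactive astrocyte list, was at 75.1 CPM in sonidegib library 1 and 63.5 and 76.2 CPM in parental libraries 1 and 2, against 7.18 to 28.6 CPM in the other 8 libraries.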
